A study of Mus musculus with 130 samples.

Results

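RNA of embryonic mouse cells sorted in the G1-S gate was compared between E13.5 and E10.5. The comparison used 18 of the 130 deposited samples, 4 of E13.5 and 14 of E10.5, which were chosen by their day and phase labels. These samples were sequencing parts of 4 of 25 libraries. The parts of a library differed little beyond sampling noise, with an index of dispersion of 1.12 to 1.21, against 24.1 between the preparations of a day. Their counts were therefore summed, and each library was counted as 1 sample. The E13.5 group held preparations 5 and 8, and the E10.5 group held preparations WT1 and WT2 (n = 2 each). Values of 1 day are given in that order throughout.

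Embryos of both days were of the FVB/NJ strain, and the submitters' design text names the FUCCI reporter, in which a red protein marks cells before S phase and a green one marks cells from S phase to mitosis. Whole embryos were minced and sorted, and the labels assign the gate with code YE to G1-S, beside gates for G0, G1 and S-G2-M and unsorted cells. No treatment is named. Whether a preparation held cells of a single embryo or of several is open from the labels. The days share no preparation, so day cannot be told apart from preparation set, and p-values measure only the spread between preparations. An E11.5 library of the same gate, from preparation WT3, was set beside both days without a test.

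At the transition from G1 to S phase, a cell with licensed replication origins turns on the genes of nucleotide supply and DNA synthesis, largely through E2F transcription factors. In the mouse, the days around midgestation bring the growth of the liver from a bud, the start of definitive red cell production there, the first cartilage models of the skeleton and a wave of neurogenesis, while axis elongation at the tail bud comes to its end. The gate is defined by a reporter and not by cell type, so its RNA can come from every dividing lineage of the embryo together. In bulk RNA of this kind, fewer cells of a type and less RNA per cell cannot be told apart.

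The 4 libraries held 15.6 to 31.4 M counts. Within each preparation, 15 to 19 of 26 genes of replication licensing were higher in the G1-S gate than in any other sorted gate, and 40 to 41 of 42 genes of G2 and mitosis were highest in S-G2-M. Several properties of the libraries moved with day. The share of counts on mitochondrially encoded genes was 2.32% to 3.42% at E13.5, against 0.442% to 0.49% at E10.5. Of 10 such genes tested and free of other-strand overlap, 2 rose and 1 fell, and 2 of 3 overlapped ones rose. The 2 that rose free of overlap were the ribosomal RNAs mt-Rnr1 and mt-Rnr2. Of the 17 tested genes that respond to tissue dissociation, 9 rose and 2 fell at E13.5. Among the immediate early genes, Egr1 had 173 and 212 CPM at E13.5, against 31.4 and 49.1 CPM at E10.5, and Nr4a1 had 45.4 and 63.6 CPM at E13.5, against 6.49 and 12.8 CPM at E10.5. The chaperone genes Hspa8 and Hsp90aa1 fell, with log2 changes of -0.57 (adjusted p = 0.00342) and -0.47 (adjusted p = 0.00869). Without preparation 8, 4 genes of this list rose and 0 fell. Hspa8 missed the threshold there (adjusted p = 0.0797 without preparation 8), and Hsp90aa1 did so without preparation 5 or without preparation 8 (adjusted p = 0.141 without preparation 5 and 0.0713 without preparation 8). The part of these properties in the results was not tested.

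Of 21465 genes tested, 3606 were higher (16.8%) and 4000 were lower (18.6%) at E13.5, at an adjusted p under 0.05 (edgeR's quasi-likelihood test with Benjamini-Hochberg adjustment). On simulated counts this test's calls held several times more unchanged genes than its threshold allows. The calls differed with the genes that lie on the other strand. Of 13455 genes with no exon base under a gene of the other strand, 2061 were higher (15.3%) and 1817 were lower (13.5%), and their median log2 change was -0.03. Of 2064 genes whose exons lay under the span of such a gene but under none of its exons, 152 were higher and 1099 were lower, with a median of -1.31. Of 316 genes with at least 50% of their exon length under exons of the other strand, 177 were higher and 51 were lower, with a median of 1.75. Of 1001 genes annotated as antisense RNA, 42 were higher and 672 were lower, with a median of -3.92. Antisense genes took 0.224% and 0.193% of counts at E13.5, against 0.465% and 0.445% at E10.5. Whether reads were counted by strand is not given in the sources used here, and a difference in strand handling between the preparation sets cannot be told apart from a change with day. Genes under a gene of the other strand were therefore counted apart, and the counts below are of genes free of such overlap unless an overlapped gene is named as one. The counts of each list below stand beside the shares of 15.3% higher and 13.5% lower, against which no list was tested. A gene at low counts on both days was not tested, and a gene high on 1 day was tested through that day.

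**Figure D1:**
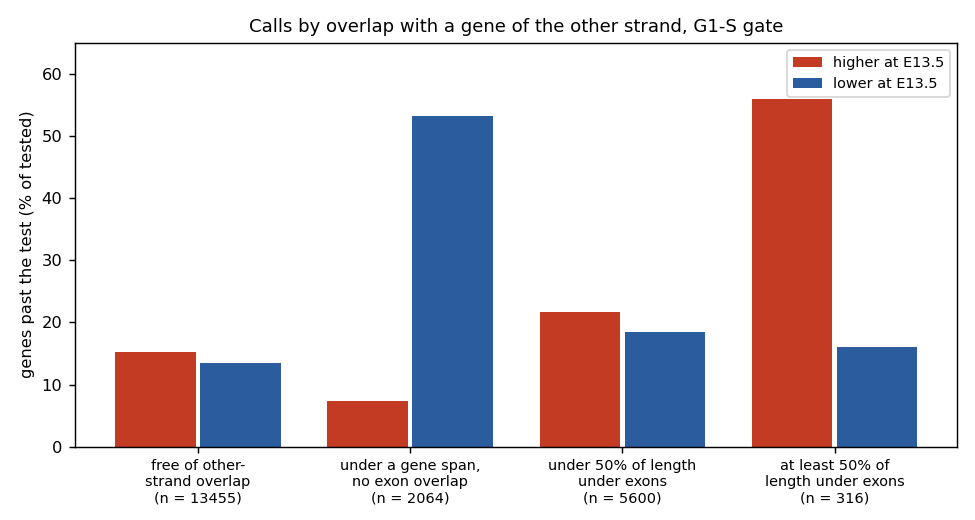
Share of tested genes past the test in each direction (y axis, percent of tested genes), by overlap with a gene of the other strand (x axis), for E13.5 against E10.5 in the G1-S gate. Genes free of overlap were higher in 15.3% and lower in 13.5%, while genes under a gene span without exon overlap were lower in 53.2% and genes with at least 50% of their length under exons were higher in 56%.

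Liver genes had the highest median change of all lists with at least 5 tested members. Of 23 hepatocyte genes free of overlap, 22 were tested and 22 rose, with a median log2 change of 4.65, against -0.03 over all genes free of overlap. Without preparation 5, 18 rose, and 19 did so without preparation 8. Without WT1, and likewise without WT2, 22 rose. Another 8 tested hepatocyte genes were overlapped, and 8 of them rose. Apoc2, the untested member free of overlap, had 6 and 5 counts at E13.5, against 0 and 1 counts at E10.5. The summed level of the 23 genes was 2279 and 1742 CPM at E13.5, against 128 and 157 CPM at E10.5 (CPM are counts per M of the scaled library total, M standing for mega). Of these genes 5 were at 0 in WT1 and 0 in WT2 at E10.5, and at E13.5 none was at 0.

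Alb encodes albumin, the main protein of blood plasma. Alb (chromosome 5, 90460897 to 90476602, plus strand; GENCODE M21 on GRCm38) had 755 and 556 CPM at E13.5, against 0.595 and 1.59 CPM at E10.5 (log2 change 9.06 ± 0.37 (SE), adjusted p = 1.76e-05). Both E13.5 libraries lay far above both E10.5 libraries, and the E11.5 library had 4.51 CPM. Afp, alpha-fetoprotein, the fetal counterpart of albumin, had 1041 and 751 CPM at E13.5, against 14 and 20.5 CPM at E10.5, with 93.7 CPM at E11.5. Afp lies next to Alb (chromosome 5, 90490737 to 90508907, plus strand) and has 63.8% of its exon length under a gene of the other strand, so it was counted apart (log2 change 5.66 ± 0.25 (SE), adjusted p = 3.83e-06).

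The 2 promoters are shown because they hold a match to the motif of HNF1, a transcription factor of hepatocytes. The sequences are the 150 bases before the RefSeq start on GRCm38.p6, plus strand, at chr5:90460720-90460869 for Alb and chr5:90490564-90490713 for Afp, with the match to GTTAATNAT in capitals.
Alb: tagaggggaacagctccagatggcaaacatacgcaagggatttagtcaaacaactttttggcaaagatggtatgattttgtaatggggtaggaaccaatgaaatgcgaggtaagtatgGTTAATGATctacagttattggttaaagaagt
Afp: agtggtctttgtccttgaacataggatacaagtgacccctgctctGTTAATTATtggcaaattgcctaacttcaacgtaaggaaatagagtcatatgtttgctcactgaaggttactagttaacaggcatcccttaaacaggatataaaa
Both strands were searched from 250 bases before to 50 after the start. The letters were found in 3 of 27 hepatocyte genes with a RefSeq promoter (Alb, Afp and Fga), and in 254 of all 27025 genes (0.94%). A match describes these letters and is no evidence of binding.

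The rise took in secreted proteins of several kinds. The fibrinogen chain gene Fga had 73.5 and 64.4 CPM at E13.5, against 0.476 and 0.210 CPM at E10.5, and Fgb had 75.2 and 63.5 CPM at E13.5, against 1.31 and 1.98 CPM at E10.5. Among the lipoprotein genes, Apoa1 had 81 and 72.3 CPM at E13.5, against 1.49 and 1.11 CPM at E10.5, Apoa2 had 37.2 and 30.1 CPM at E13.5, against 0.417 and 0.479 CPM at E10.5, and Apob had 335 and 196 CPM at E13.5, against 9.29 and 8.92 CPM at E10.5. No E13.5 value of these genes overlapped an E10.5 value. Here and elsewhere, such a lack of overlap comes from the same libraries as the test and adds no support to it. The share of all genes without overlap was not counted. The steroid carrier gene Serpina6 (cortisol-binding globulin) had 149 and 97.8 CPM at E13.5, against 0 and 0.778 CPM at E10.5 (log2 change 7.92 ± 0.77 (SE), adjusted p = 0.00563), and complement C3 had 101 and 86.2 CPM at E13.5, against 0 and 1.38 CPM at E10.5 (log2 change 6.73 ± 0.87 (SE), adjusted p = 0.017). Both calls were lost in some fits, that of Serpina6 with adjusted p = 0.0505 with no filter, 0.116 without preparation 5 and 0.119 without preparation 8, and that of C3 with adjusted p = 0.0872 with no filter, 0.27 without preparation 5 and 0.261 without preparation 8. Without WT2 the E10.5 side of Serpina6 is a library at 0, and its fitted log2 change, 14.17, then depends on the prior count. Kng1, which encodes kininogen, had 525 and 459 counts at E13.5, against 0 and 1 at E10.5, a ratio of CPM of 1250 with a 95% counting interval of 225 to 49600. Kng1 has a close paralog, Kng2, with which it can share reads. The glucuronosyltransferase gene Ugt2b34 had 23.3 and 17.9 CPM at E13.5, against 0 and 0.389 CPM at E10.5 (log2 change 6.32 ± 0.55 (SE), adjusted p = 9.87e-05). Igfbp1, a binding protein of insulin-like growth factors made in liver, had 11 and 9.33 CPM at E13.5, against 0.238 and 0.120 CPM at E10.5 (log2 change 5.90 ± 0.43 (SE), adjusted p = 5.95e-06).

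Regulators of the hepatocyte were low but also rose. The nuclear receptor gene Hnf4a, with 3.73% of its exon length overlapped, had 25.9 and 19.1 CPM at E13.5, against 1.67 and 0.808 CPM at E10.5 (log2 change 4.25 ± 0.34 (SE), adjusted p = 1.85e-05). Foxa3, a forkhead factor of the endoderm, had 5.58 and 4.16 CPM at E13.5, against 0 and 0.239 CPM at E10.5 (log2 change 4.94 ± 0.66 (SE), adjusted p = 0.000373). The smallest rise of a tested member was that of Vtn, vitronectin, with 47 and 35.7 CPM at E13.5, against 25.8 and 28.1 CPM at E10.5 (log2 change 0.59 ± 0.16 (SE), adjusted p = 0.0176). Arg1, the arginase of the urea cycle, went the other way and had 0.866 and 1.53 CPM at E13.5, against 23.6 and 29.7 CPM at E10.5 (log2 change -4.48 ± 0.29 (SE), adjusted p = 2.9e-06), and it stood at 54.2 CPM in the E11.5 library.

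**Figure D2:**
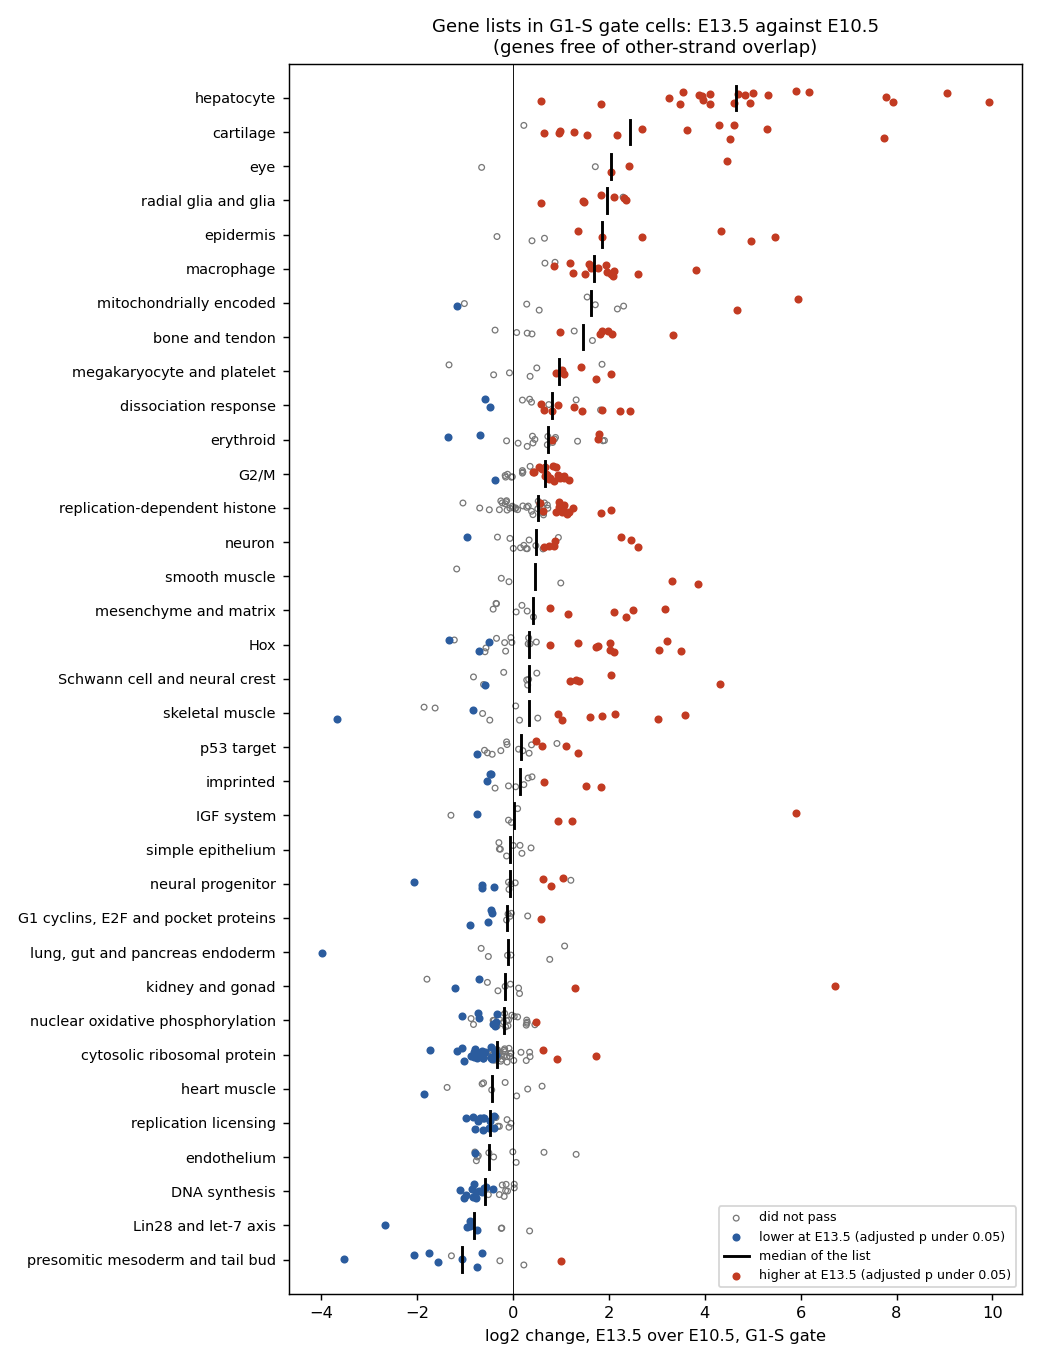
Log2 change of E13.5 over E10.5 in the G1-S gate (x axis) for each tested gene of the lists with at least 5 tested members (y axis), leaving out genes overlapped on the other strand; filled points passed the test, open points did not, and the bar is the median of the list. Hepatocyte genes reach the highest changes with a median of 4.65, cartilage genes follow with 2.44 and eye genes with 2.05, and the presomitic mesoderm and tail bud genes have the lowest median at -1.05.

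The rise of most liver genes was larger in the G1-S gate than in the other sorted gates. The day change in G1-S was tested against the mean day change in G0, G1 and S-G2-M over 16 libraries, and of 15137 tested genes free of overlap 390 had a higher (2.58%) and 322 a lower (2.13%) day change in G1-S. For hepatocyte genes 18 of 22 tested had a higher day change in G1-S and 0 a lower one, with a median difference of 5.16 on the log2 scale, against 0.02 over all genes tested. At E13.5 the list averaged 5.03 and 4.70 log2 CPM in G1-S, and lay between -0.38 and 0.04 in the 6 libraries of the other sorted gates. It averaged 4.10 and 3.75 log2 CPM in unsorted cells of E13.5. At E10.5 it averaged -0.69 and 0.22 log2 CPM in G1-S. Alb averaged 656 CPM in G1-S at E13.5, 409 CPM in unsorted cells, and 4.44, 3.95 and 7.18 CPM in G0, G1 and S-G2-M. The difference for Alb was 6.38 ± 0.67 (SE), adjusted p = 0.000678.

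Over all genes, overlapped ones included, 1053 were called in this test of gates. The count was 83 without preparation 5, 89 without preparation 8, 3289 without WT1 and 3420 without WT2, and 2046 with the preparation as a block. With the block, 20 hepatocyte genes had a higher day change in G1-S. Without preparation 5 or 8, the difference for Alb was past the threshold in neither case (adjusted p = 0.0646 and 0.0628). Markers of macrophages were also higher in this gate at E13.5 than at E10.5. The summed level of 18 macrophage genes was 335 and 261 CPM at E13.5, against 104 and 98.5 CPM at E10.5. The part of macrophages in the liver genes was not tested.

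**Figure D3:**
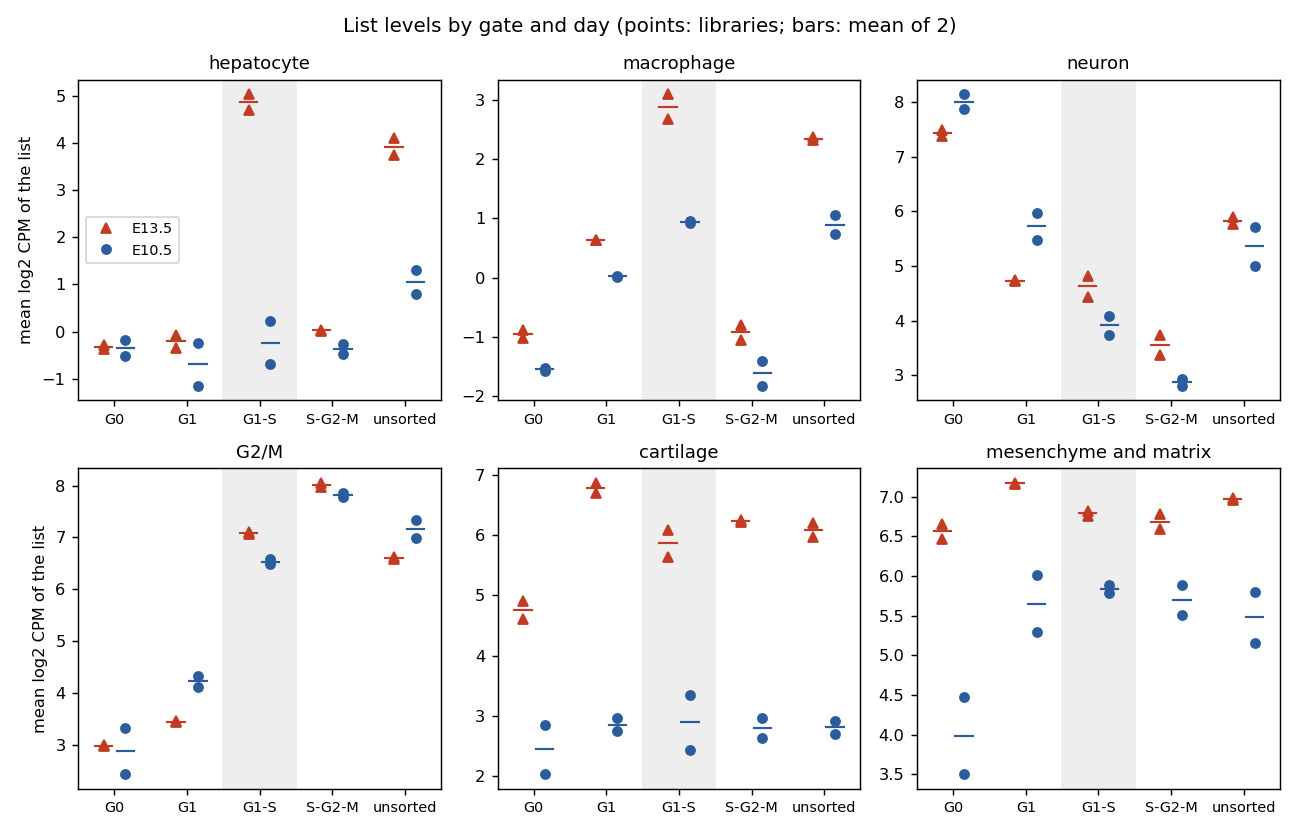
Mean log2 CPM of 6 gene lists (y axis) in each gate (x axis), with E13.5 left of E10.5; each point is 1 library and each bar the mean of both libraries. The hepatocyte list stands at 4.70 to 5.03 in G1-S at E13.5, apart from the other sorted gates, while cartilage genes were higher at E13.5 in every gate.

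Most macrophage genes rose. Of 16 tested, 14 rose and 0 fell, with a median log2 change of 1.70; without preparation 5, 9 rose. Adgre1, which encodes the F4/80 antigen, had 29.7 and 22.3 CPM at E13.5, against 5.42 and 3.23 CPM at E10.5 (log2 change 2.60 ± 0.28 (SE), adjusted p = 0.000108). Timd4, a receptor for dying cells on resident macrophages, had 5.25 and 4.78 CPM at E13.5, against 0 and 0.569 CPM at E10.5 (log2 change 3.82 ± 0.74 (SE), adjusted p = 0.0048). Its call was lost in 3 fits (adjusted p = 0.1 by DESeq2, 0.0558 without preparation 5 and 0.0558 without preparation 8). Csf1r, the receptor for the growth factor of the lineage, is 15.1% overlapped and had 83.5 and 78.8 CPM at E13.5, against 25.4 and 16.8 CPM at E10.5. The groups did not overlap for any of these genes, which adds no support to the test. In the test of gates 3 of 16 macrophage genes had a higher day change in G1-S, and 4 with the preparation block. Adgre1 averaged 26 CPM in G1-S at E13.5 and 0.715, 2.80 and 0.501 CPM in G0, G1 and S-G2-M.

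Platelet and megakaryocyte genes rose in 6 of 12 cases, with none lower. Without WT1, 2 fell, and without WT2, 1 did. Without preparation 5 the count of rises was 3, and without preparation 8 it was 4. Pf4, a chemokine stored in platelet granules, had 21 and 18.1 CPM at E13.5, against 6.79 and 7.51 CPM at E10.5 (log2 change 1.42 ± 0.20 (SE), adjusted p = 0.000454). Treml1, a platelet receptor, had 2.82 and 2.44 CPM at E13.5, against 0.417 and 0.778 CPM at E10.5 (log2 change 2.05 ± 0.50 (SE), adjusted p = 0.00907), and Gp1bb, a chain of the platelet receptor for von Willebrand factor, had 4.44 and 5.36 CPM at E13.5, against 1.43 and 1.47 CPM at E10.5 (log2 change 1.73 ± 0.35 (SE), adjusted p = 0.00327). Treml1 missed the threshold without preparation 5 or without preparation 8 (adjusted p = 0.0954 without preparation 5 and 0.0561 without preparation 8), and Gp1bb did so once (adjusted p = 0.0548 without preparation 8). In granulocyte and mast cell genes 11 of 13 free of overlap were too low to test. Ltf, lactoferrin, rose, with 23 and 14 counts at E13.5 and 0 in each E10.5 library, at least 15.7-fold higher against a floor of 3 counts over the E10.5 group (adjusted p = 0.00279). Without preparation 5, Ltf was too low to test. Kit, the receptor of stem cell factor, had 61.2 and 60 CPM at E13.5, against 49.3 and 54.5 CPM at E10.5 (adjusted p = 0.252).

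Globin genes moved in both directions between the days. Hbb-bh1, an embryonic beta-like globin (chromosome 7, 103841637 to 103843164, minus strand), fell to 9.10 and 9.90 CPM at E13.5, against 236 and 129 CPM at E10.5 (log2 change -4.29 ± 0.35 (SE), adjusted p = 0.000763). The adult beta globin Hbb-bs (chromosome 7, 103826534 to 103828096, minus strand) had 298 and 148 CPM at E13.5, against 10.4 and 8.77 CPM at E10.5 (log2 change 4.52 ± 0.44 (SE), adjusted p = 0.00359). The adult alpha globin Hba-a1 had 606 and 291 CPM at E13.5, against 49.3 and 37.5 CPM at E10.5 (log2 change 3.35 ± 0.48 (SE), adjusted p = 0.0147). These 3 genes did not overlap between days, which adds no support to the test. Hbb-y, an embryonic beta-like globin, rose and had 843 and 528 CPM at E13.5, against 384 and 259.8 CPM at E10.5 (log2 change 1.06 ± 0.30 (SE), adjusted p = 0.045), but it missed the threshold in 3 fits (adjusted p = 0.0537 by DESeq2, 0.319 in the fit of 16 sorted libraries and 0.064 without preparation 5). Hba-a1 missed it in 1 (adjusted p = 0.0536 with no filter). The embryonic alpha globin Hba-x had 124 and 60.2 CPM at E13.5, against 68.5 and 65 CPM at E10.5 (adjusted p = 0.41), and one E13.5 library lay below both E10.5 libraries. Hbb-bt had 44.3 and 24.1 CPM at E13.5, against 0 and 1.59 CPM at E10.5, which missed the threshold (adjusted p = 0.055). Hba-a2, not tested, had 2 and 2 counts at E13.5 and 0 at E10.5. Hba-a1 with Hba-a2, and Hbb-bs with Hbb-bt, are near-identical copies, so reads between them may be divided by the counting and their single levels are uncertain.

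The promoter of Hbb-bs is shown for the CACCC box, a motif bound by KLF1 at the adult beta globin gene. The sequence is the 150 bases before the RefSeq start on GRCm38.p6, minus strand, at chr7:103827929-103828078, which lies inside the longer GENCODE span of the gene, with the match to CCACACCC in capitals.
Hbb-bs: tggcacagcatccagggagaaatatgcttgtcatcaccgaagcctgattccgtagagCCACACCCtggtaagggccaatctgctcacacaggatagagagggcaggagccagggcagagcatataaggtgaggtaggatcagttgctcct
The letters were found on either strand in 4.09% of the 27025 genes, and in 1 of 4 adult globin genes. For Klf1 itself the levels were 3.57 and 2.06 CPM at E13.5, against 0.774 and 0.808 CPM at E10.5 (log2 change 1.79 ± 0.48 (SE), adjusted p = 0.0146). It missed the threshold in 1 fit (adjusted p = 0.256 without preparation 5).

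Globin levels in this gate were small beside those in unsorted cells. Hbb-bs averaged 6820.1 CPM in unsorted cells of E13.5, and 223 CPM in G1-S, 183 in G0, 279 in G1 and 142 in S-G2-M. Hbb-bh1 averaged 125 CPM in unsorted cells at E13.5, against 6715 CPM at E10.5. No globin gene had a day change in G1-S that differed past the threshold from the other gates, and 0 did so with the preparation block. Of 19 other genes of the red cell lineage tested, 3 rose and 2 fell, shares near the 15.3% and 13.5% over all genes free of overlap. Without WT1, 10 rose, and without preparation 5, 1 did, and without preparation 8, 0 fell. Gata1, the main transcription factor of the lineage, had 2.38 and 2.15 CPM at E13.5, against 2.08 and 1.32 CPM at E10.5 (adjusted p = 0.494). Bcl11a, a repressor of embryonic globin genes, is 41.1% overlapped and had 113 and 114 CPM at E13.5, against 107 and 57.5 CPM at E10.5 (adjusted p = 0.322); WT2 lay well below the other 3 libraries. The transferrin receptor gene Tfrc fell (log2 change -0.68 ± 0.14 (SE), adjusted p = 0.00427), as did Nfe2 (log2 change -1.35 ± 0.29 (SE), adjusted p = 0.00516), a globin gene regulator, while the water channel gene Aqp1 rose (log2 change 1.77 ± 0.27 (SE), adjusted p = 0.000779). Without preparation 8 the falls of Tfrc and Nfe2 were not called (adjusted p = 0.0608 without preparation 8, and adjusted p = 0.077 without preparation 8).

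Cartilage genes had the next highest median. Of 14 tested, 13 rose and 0 fell, with a median log2 change of 2.44, and 3 of 3 overlapped members rose as well. Matn1, a cartilage matrix protein (chromosome 4, 130944385 to 130955475, plus strand), had 56.3 and 38.3 CPM at E13.5, against 0 and 0.329 CPM at E10.5 (log2 change 7.73 ± 0.51 (SE), adjusted p = 6.26e-05). Acan, the core protein of aggrecan, had 204 and 125 CPM at E13.5, against 2.38 and 5.42 CPM at E10.5 (log2 change 5.30 ± 0.50 (SE), adjusted p = 0.00329). Col2a1, the main collagen of cartilage, was already high at E10.5 and had 1654 and 1660.2 CPM at E13.5, against 746 and 607 CPM at E10.5 (log2 change 1.27 ± 0.14 (SE), adjusted p = 7.88e-05). Sox9, the transcription factor that begins chondrogenesis, had 70.6 and 68.4 CPM at E13.5, against 35.5 and 52 CPM at E10.5 (log2 change 0.64 ± 0.17 (SE), adjusted p = 0.0146). The member that did not pass was Hapln1, the link protein, with 147 and 92.2 CPM at E13.5, against 61 and 139 CPM at E10.5, and WT2 lay between the E13.5 libraries.

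The cartilage rise was also seen in the other gates. In the test of gates 1 of 14 cartilage genes had a higher day change in G1-S and 4 a lower one, and with the preparation block the counts were 1 and 7. The median difference was -0.79 on the log2 scale. Col2a1 averaged 1657 CPM in G1-S at E13.5, against 677 CPM at E10.5, and 3432 CPM in G1 at E13.5, against 524 CPM at E10.5. Its difference between gates was -0.96 ± 0.23 (SE), adjusted p = 0.0277.

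Genes of bone and tendon rose in 6 of 12 cases, and those of mesenchyme and matrix in 6 of 13, with none lower in either list. Without WT1, however, 7 mesenchyme and matrix genes rose and 3 fell. Col1a1, a chain of type I collagen, had 1189.6 and 1390.0 CPM at E13.5, against 293 and 318 CPM at E10.5 (log2 change 2.06 ± 0.13 (SE), adjusted p = 2.57e-06). Col6a3, a chain of type VI collagen, had 432 and 382 CPM at E13.5, against 77.6 and 62.8 CPM at E10.5 (log2 change 2.51 ± 0.14 (SE), adjusted p = 1.38e-06), and the proteoglycan gene Dcn had 83.1 and 63.2 CPM at E13.5, against 6.90 and 8.80 CPM at E10.5 (log2 change 3.18 ± 0.19 (SE), adjusted p = 1.75e-06). Tnmd, a marker of tendon, had 3.63 and 3.44 CPM at E13.5, against 0.714 and 0.0898 CPM at E10.5 (log2 change 3.33 ± 0.72 (SE), adjusted p = 0.00617). In the test of gates 3 of 13 mesenchyme genes had a lower day change in G1-S and 0 a higher one. With the preparation block 9 were lower. The list averaged 6.66 and 6.47 log2 CPM in G0 and 6.83 and 6.76 log2 CPM in G1-S at E13.5. At E10.5 it averaged 3.50 and 4.47 log2 CPM in G0 and 5.79 and 5.89 log2 CPM in G1-S. The list was higher at E13.5 in the other gates as well. In G1 it averaged 7.174 and 7.166 log2 CPM at E13.5, against 5.292 and 6.008 at E10.5. In S-G2-M it averaged 6.781 and 6.595 log2 CPM at E13.5, against 5.508 and 5.884 at E10.5.

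Muscle genes did not move as 1 group. Of 16 tested genes of skeletal muscle, 7 rose and 2 fell. The counts of rises were 3 without preparation 5 and 4 without preparation 8, and 6 genes fell without WT1. Myod1, which commits cells to the muscle fate, had 27.2 and 21.4 CPM at E13.5, against 1.79 and 2.13 CPM at E10.5 (log2 change 3.59 ± 0.24 (SE), adjusted p = 3.91e-06). Pax3, a factor of early muscle progenitors, fell to 19.9 and 21.8 CPM at E13.5, against 39.2 and 34.1 CPM at E10.5 (log2 change -0.84 ± 0.16 (SE), adjusted p = 0.00228). Myf6 also fell and had 0 and 0.191 CPM at E13.5, against 1.19 and 1.44 CPM at E10.5 (log2 change -3.67 ± 0.91 (SE), adjusted p = 0.00993). Chrna1, the muscle receptor for acetylcholine, had 3.57 and 2.39 CPM at E13.5, against 0 and 0.599 CPM at E10.5 (log2 change 3.03 ± 0.84 (SE), adjusted p = 0.0231). Myog, a factor of differentiation, had 26.1 and 24.1 CPM at E13.5, against 20 and 24.7 CPM at E10.5 (adjusted p = 0.55). The embryonic myosin Myh3 had 11.3 and 9.43 CPM at E13.5, against 15.5 and 57.5 CPM at E10.5 (adjusted p = 0.192), and WT2 stood well above WT1. Of 6 smooth muscle genes, 2 rose, Actg2 (12 and 13.2 CPM at E13.5, against 0.417 and 1.14 CPM at E10.5) and Myh11 (23.8 and 29.8 CPM at E13.5, against 0.655 and 4.16 CPM at E10.5). In that list 1 rose without preparation 5, 1 without preparation 8 and 4 without WT2, while without WT1 3 rose and 2 fell. Myh11 missed the threshold in 3 fits (adjusted p = 0.192 with no filter, 0.308 without preparation 5 and 0.311 without preparation 8), as did Chrna1 (adjusted p = 0.224 by DESeq2, 0.154 without preparation 5 and 0.0964 without preparation 8), and Myf6 did in 1 (adjusted p = 0.105 without preparation 5).

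The E10.5 libraries differed from each other in heart and vessel genes. Kdr, a receptor for vascular growth factor, had 146 and 83.3 CPM at E13.5, against 95.8 and 275 CPM at E10.5, and Pecam1 had 79.2 and 47.3 CPM at E13.5, against 32.4 and 91.5 CPM at E10.5, so that the E13.5 libraries lay between WT1 and WT2 for Pecam1. Of 11 endothelial genes, 0 rose and 1 fell, namely Cldn5 (log2 change -0.78 ± 0.22 (SE), adjusted p = 0.0231), whose call was lost in 2 fits (adjusted p = 0.499 in the fit of 16 sorted libraries and 0.203 without preparation 8). Without WT1, 9 of them were lower at E13.5, and without WT2, 6 were higher, so the direction depended on which E10.5 library was kept. Of 9 heart genes 1 fell, Myl7, with 10.5 and 13.1 CPM at E13.5, against 26.9 and 56.5 CPM at E10.5 (log2 change -1.85 ± 0.36 (SE), adjusted p = 0.0101), and without WT1 6 did. Over all genes free of overlap 15.3% were higher and 13.5% lower. The 8 tested genes of simple epithelium had log2 changes of -0.29 to 0.38, and 0 passed by edgeR, 0 by DESeq2 and 1 at an unadjusted p under 0.05. Myl7 did not pass without preparation 5 or without preparation 8 (adjusted p = 0.129 without preparation 5 and 0.0897 without preparation 8), and without WT2 2 heart genes rose.

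Neuronal and glial genes changed in part. Of 19 neuronal genes, 7 rose and 1 fell, and 4 rose without preparation 8, against 11 without WT2. Scrt2, a transcriptional repressor of newborn neurons, had 9.37 and 13.4 CPM at E13.5, against 1.67 and 1.95 CPM at E10.5 (log2 change 2.62 ± 0.30 (SE), adjusted p = 0.000121), and the related Scrt1 had 9.31 and 11.8 CPM at E13.5, against 1.43 and 2.25 CPM at E10.5 (log2 change 2.46 ± 0.31 (SE), adjusted p = 0.000221). Isl1, a factor of motor and sensory neurons, fell to 19.1 and 26.5 CPM at E13.5, against 45.5 and 41.3 CPM at E10.5 (log2 change -0.95 ± 0.18 (SE), adjusted p = 0.00237). Neurod6, a factor of cortical excitatory neurons (chromosome 6, 55677822 to 55681263, minus strand), had 295 and 375 counts at E13.5, against 0 and 2 at E10.5, a ratio of CPM of 427 with a 95% counting interval of 118 to 3540. Neurod4, expressed in early neuronal precursors, fell to 8.66 and 10.8 CPM at E13.5, against 62.5 and 48.3 CPM at E10.5 (log2 change -2.53 ± 0.19 (SE), adjusted p = 8.67e-06). Among progenitor genes 3 rose and 4 fell of 12, and the counts were 1 and 2 without preparation 8, with 1 lower without preparation 5. Nkx6-1, a factor of the ventral neural tube, had 3.68 and 3.49 CPM at E13.5, against 13.2 and 16.2 CPM at E10.5 (log2 change -2.06 ± 0.24 (SE), adjusted p = 0.000133), and Nes, nestin, an intermediate filament of progenitors, had 289.9 and 398 CPM at E13.5, against 526 and 539 CPM at E10.5 (log2 change -0.65 ± 0.15 (SE), adjusted p = 0.00753). Neurog2, which drives neurogenesis, had 17.9 and 21.2 CPM at E13.5, against 10.5 and 8.14 CPM at E10.5 (log2 change 1.05 ± 0.21 (SE), adjusted p = 0.00367), and Sox1 had 23.4 and 27.4 CPM at E13.5, against 14.1 and 14.7 CPM at E10.5 (log2 change 0.80 ± 0.17 (SE), adjusted p = 0.00496). For each of these progenitor genes the days did not overlap, which adds no support to the test. Nes missed the threshold in 1 fit (adjusted p = 0.121 without preparation 5), and so did Sox1 (adjusted p = 0.0861 without preparation 8).

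Radial glia and glial genes rose in 7 of 8 cases, with a median of 1.97. Fewer were called without preparation 5 and without preparation 8, and more without WT1 and without WT2. Tested between gates, 1 of 9 of these genes had a higher day change in G1-S and 3 a lower one. With the preparation block the counts were 3 and 3. Ptprz1, a receptor phosphatase of radial glia, had 128 and 131 CPM at E13.5, against 26.1 and 25.1 CPM at E10.5 (log2 change 2.32 ± 0.13 (SE), adjusted p = 9.26e-07). Nfib, a factor of the onset of gliogenesis, had 514 and 457 CPM at E13.5, against 110.1 and 111 CPM at E10.5 (log2 change 2.11 ± 0.12 (SE), adjusted p = 1.3e-06), and Bcan, the matrix protein brevican, had 6.50 and 4.55 CPM at E13.5, against 0.179 and 1.74 CPM at E10.5 (log2 change 2.35 ± 0.71 (SE), adjusted p = 0.0399). In the Schwann cell and neural crest list 5 of 13 rose, among them Sox10 (48.7 and 64.1 CPM at E13.5, against 11 and 15.8 CPM at E10.5), and Ret, a receptor of enteric neuron precursors, fell (log2 change -0.57 ± 0.20 (SE), adjusted p = 0.049). The fall of Ret was not called in 4 other fits (adjusted p = 0.0525 with RLE factors, 0.086 by DESeq2, 0.166 without preparation 5 and 0.39 without preparation 8), nor with the mitochondrially encoded genes left out, and Bcan lost its call without preparation 5 or without preparation 8 (adjusted p = 0.2 without preparation 5 and 0.155 without preparation 8). Nor was Ret called with the genes Gm26917 and Gm42418 left out. In the test of gates 10 of 19 neuronal genes had a higher day change in G1-S and 0 a lower one, and with the preparation block 12 were higher. The list averaged 4.44 and 4.82 log2 CPM in G1-S at E13.5, against 3.73 and 4.08 at E10.5. In the G1 gate it averaged 4.72 and 4.74 log2 CPM at E13.5, against 5.98 and 5.48 at E10.5. In G0 the list was lower at E13.5 too, with 7.379 and 7.490 log2 CPM, against 8.143 and 7.876 at E10.5. In S-G2-M it was higher at E13.5, as in G1-S, with 3.375 and 3.734 log2 CPM, against 2.928 and 2.809 at E10.5. Cntn2, an axonal adhesion protein, averaged 112 CPM in G1-S at E13.5, against 70.7 CPM at E10.5, and 80.7 CPM in G1 at E13.5, against 393 CPM at E10.5. The difference between gates was 1.82 ± 0.29 (SE), adjusted p = 0.0036.

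Skin genes rose in 6 of 9 cases and none fell, with a median log2 change of 1.86. The median was 1.52 without preparation 5, 2.31 without preparation 8, 1.36 without WT1 and 3.63 without WT2. Fewer skin genes were called without preparation 5 and without preparation 8, and more without WT2. Of the 12 skin genes free of overlap, 6 were at 0 in WT1 and 1 in WT2 at E10.5. Krt14, a keratin of the basal layer, had 36.5 and 34.8 CPM at E13.5, against 1.37 and 1.98 CPM at E10.5 (log2 change 4.34 ± 0.22 (SE), adjusted p = 7.34e-07). Krt17 had 4.44 and 6.27 CPM at E13.5, against 0 and 0.180 CPM at E10.5 (log2 change 5.46 ± 0.65 (SE), adjusted p = 0.000153), and Krt15 had 22.3 and 22 CPM at E13.5, against 0 and 1.14 CPM at E10.5 (log2 change 4.96 ± 0.83 (SE), adjusted p = 0.0132). Krt15 missed the threshold in 3 fits (adjusted p = 0.0689 by DESeq2, 0.277 without preparation 5 and 0.28 without preparation 8). Trp63, the master regulator of stratified epithelium, had 22.9 and 18.4 CPM at E13.5, against 9.29 and 16.2 CPM at E10.5 and missed the threshold (adjusted p = 0.071).

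**Figure D4:**
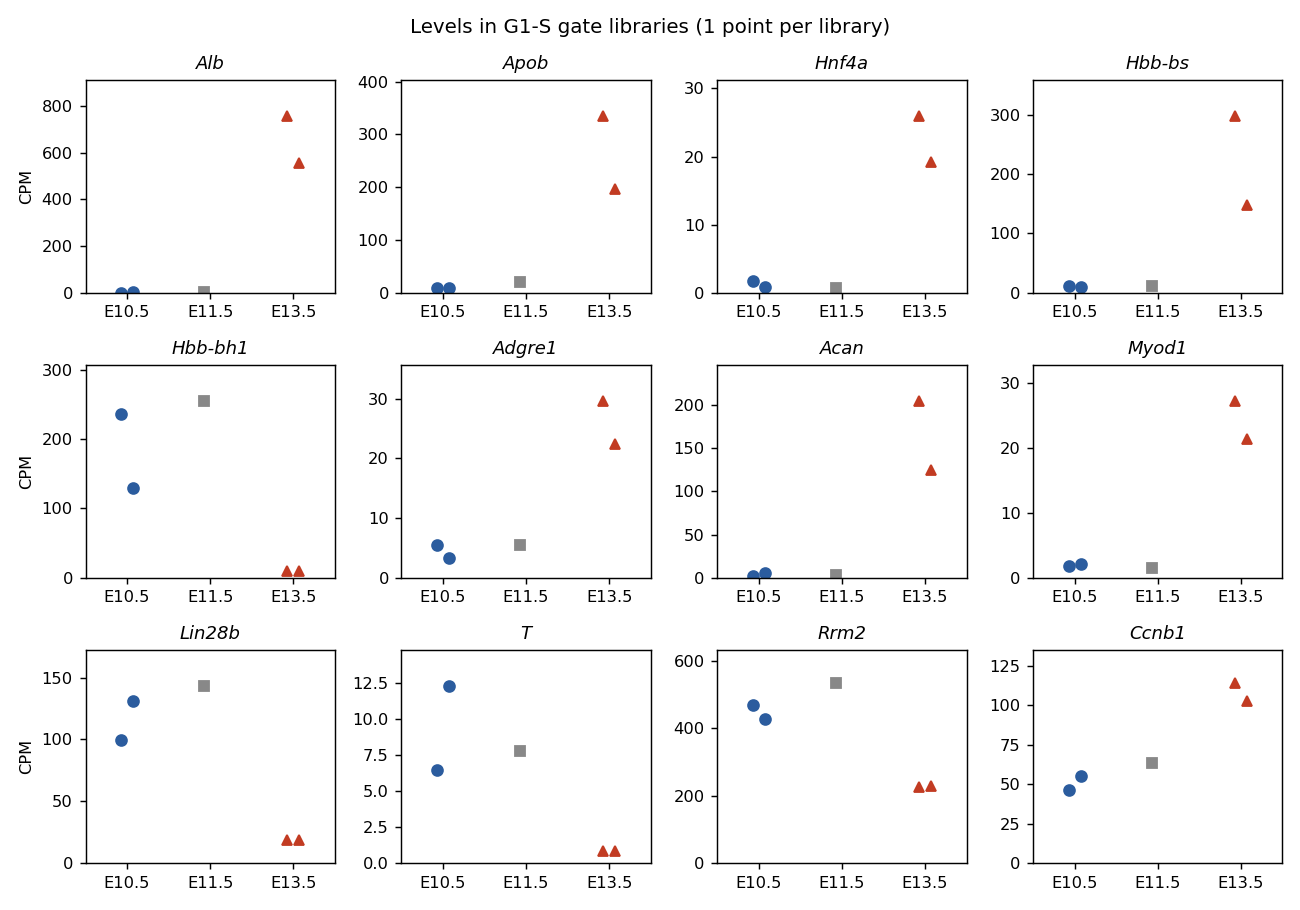
Levels of 12 genes in G1-S gate libraries (y axis, CPM) by embryonic day (x axis, from E10.5 through E11.5 to E13.5); each point is 1 library. Alb stands at 556 to 755 CPM at E13.5 and under 5 CPM on both earlier days, while Lin28b stands under 20 CPM at E13.5 and at 99.7 to 144 CPM on the earlier days.

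Most tested genes of the elongating axis fell. Of 11 tested genes of presomitic mesoderm and tail bud, 7 fell and 1 rose, with a median log2 change of -1.05. Without preparation 5, 2 fell, and without preparation 8, 4 did. T, the brachyury gene of the tail bud and notochord (chromosome 17, 8434423 to 8442496, plus strand), had 0.812 and 0.861 CPM at E13.5, against 6.49 and 12.3 CPM at E10.5 (log2 change -3.51 ± 0.39 (SE), adjusted p = 0.000106). Cyp26a1, an enzyme that degrades retinoic acid at the tail, had 2.60 and 2.25 CPM at E13.5, against 10.9 and 9.13 CPM at E10.5 (log2 change -2.07 ± 0.28 (SE), adjusted p = 0.000337), and Tbx6, a factor of presomitic mesoderm, had 1.08 and 1.72 CPM at E13.5, against 3.81 and 5.42 CPM at E10.5 (log2 change -1.74 ± 0.39 (SE), adjusted p = 0.0058). The member that rose was Uncx, a homeobox gene of the posterior somite, with 7.63 and 11.8 CPM at E13.5, against 5.06 and 4.55 CPM at E10.5 (log2 change 1.0 ± 0.28 (SE), adjusted p = 0.0194). Of the 16 genes free of overlap, Msgn1, Mesp1, Mesp2, Ripply1 and Ripply2 were too low to test, with no library above 0.898 CPM. The rise of Uncx was not called in 2 fits (adjusted p = 0.0604 in the fit of 16 sorted libraries and 0.29 without preparation 8).

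Genes of the Lin28 and let-7 axis also fell. LIN28A and LIN28B block the maturation of let-7 microRNAs, and several genes of the list are let-7 targets. Of 8 tested genes, 5 fell and 0 rose, and without preparation 8, 3 fell. Lin28b (chromosome 10, 45376620 to 45486395, minus strand) had 18.9 and 18.3 CPM at E13.5, against 99.7 and 131 CPM at E10.5 (log2 change -2.66 ± 0.16 (SE), adjusted p = 1.63e-06), and the E11.5 library had 144 CPM. Arid3a had 41.9 and 37.1 CPM at E13.5, against 56.1 and 87.7 CPM at E10.5 (log2 change -0.89 ± 0.20 (SE), adjusted p = 0.00683), and Nr6a1, a nuclear receptor of early embryos, had 18.1 and 17.3 CPM at E13.5, against 25.1 and 42 CPM at E10.5 (log2 change -0.95 ± 0.22 (SE), adjusted p = 0.00909). Of 9 overlapped members, 5 fell and 1 rose. Lin28a, 9.18% overlapped, had 2.38 and 1.48 CPM at E13.5, against 15.3 and 40.3 CPM at E10.5 (adjusted p = 0.00556). Trim71, an RNA-binding ubiquitin ligase and let-7 target with 1.45% overlap, had 29 and 27.4 CPM at E13.5, against 116 and 180.3 CPM at E10.5 (adjusted p = 4.31e-05). Igf2bp1, an RNA-binding protein with 0.537% overlap, had 309 and 285 CPM at E13.5, against 539 and 693 CPM at E10.5 (adjusted p = 0.000222), and the chromatin protein gene Hmga2, with 4.03% overlap, had 193 and 163 CPM at E13.5, against 222 and 276 CPM at E10.5 (adjusted p = 0.0146). Igf2bp2 had 180.3 and 179 CPM at E13.5, against 195 and 219 CPM at E10.5 (adjusted p = 0.141), and Igf2bp3, overlapped, had 194 and 196 CPM at E13.5, against 179 and 188 CPM at E10.5 (adjusted p = 0.693). Lin28a missed the threshold without preparation 5 or without preparation 8 (adjusted p = 0.0857 without preparation 5 and 0.126 without preparation 8), and without preparation 8 so did Nr6a1 (adjusted p = 0.0643 without preparation 8) and Hmga2 (adjusted p = 0.199 without preparation 8).

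Other genes among the 12 lowest changes stood higher in the E11.5 library than in either E13.5 library. Prtg, protogenin, a surface protein of early neural and mesodermal tissue, had 15.2 and 10.4 CPM at E13.5, against 111 and 169 CPM at E10.5 (log2 change -3.47 ± 0.26 (SE), adjusted p = 9.75e-05), with 199 CPM at E11.5. Igdcc3, a related surface protein, had 13.9 and 16.5 CPM at E13.5, against 149.5 and 196 CPM at E10.5 (log2 change -3.53 ± 0.17 (SE), adjusted p = 4.14e-07), with 176 CPM at E11.5. Mroh2a had 0.379 and 0.191 CPM at E13.5, against 14 and 17.7 CPM at E10.5 (log2 change -5.82 ± 0.37 (SE), adjusted p = 2.66e-06), and Slc16a4, a member of the monocarboxylate transporter family, had 1.79 and 1.67 CPM at E13.5, against 23.2 and 23.3 CPM at E10.5 (log2 change -3.77 ± 0.23 (SE), adjusted p = 2.16e-06). The other genes among the 12 lowest were Zbtb16, Nfe2l3, Pqlc3 and Mcoln3, with log2 changes of -2.53, -2.96, -2.73 and -2.64. They had 32, 8.85, 16.3 and 26.1 CPM at E11.5. Among the 12 highest, Agtr2, the type 2 angiotensin receptor, had 73 and 50.6 CPM at E13.5, against 0.536 and 0.449 CPM at E10.5 (log2 change 6.97 ± 0.28 (SE), adjusted p = 2.03e-07), and Zcchc5, a gene derived from a retrotransposon, had 56.1 and 42.1 CPM at E13.5, against 0.595 and 0.599 CPM at E10.5 (log2 change 6.33 ± 0.25 (SE), adjusted p = 1.94e-07).

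Hox genes, which set position along the body axis, rose in 10 and fell in 3 of 25 cases, with 1 lower without preparation 5 and 1 without preparation 8. The highest log2 changes were those of Hoxc12, with 3.95 and 3.59 CPM at E13.5, against 0.179 and 0.419 CPM at E10.5 (log2 change 3.50 ± 0.51 (SE), adjusted p = 0.000529), and Hoxc11, with 3.68 and 4.35 CPM at E13.5, against 0.119 and 0.629 CPM at E10.5 (log2 change 3.22 ± 0.57 (SE), adjusted p = 0.00173). Hoxd13 had 14 and 10.8 CPM at E13.5, against 2.86 and 3.14 CPM at E10.5 (log2 change 2.02 ± 0.26 (SE), adjusted p = 0.000258). Those that fell included Hoxb4, with 7.20 and 8.42 CPM at E13.5, against 20.3 and 18.3 CPM at E10.5 (log2 change -1.33 ± 0.20 (SE), adjusted p = 0.00074), and Hoxa2, with 6.93 and 6.75 CPM at E13.5, against 12.4 and 9.49 CPM at E10.5 (log2 change -0.70 ± 0.24 (SE), adjusted p = 0.0453). The fall of Hoxa2 was lost in 4 other fits (adjusted p = 0.077 by DESeq2, 0.225 without preparation 5, 0.245 without preparation 8 and 0.111 without WT1).

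Imprinted and growth factor genes changed both ways. Dlk1, a paternally expressed Notch ligand homologue that also marks hepatoblasts, had 307 and 299.6 CPM at E13.5, against 74.8 and 93.4 CPM at E10.5 (log2 change 1.83 ± 0.13 (SE), adjusted p = 5.33e-06). Igf2, the main fetal growth factor, is 8.3% overlapped and had 1394 and 1508 CPM at E13.5, against 430.0 and 606 CPM at E10.5 (log2 change 1.46 ± 0.16 (SE), adjusted p = 0.000103). Its neighbour H19 (5.73% overlapped) had 4367 and 4468 CPM at E13.5, against 2501 and 2615 CPM at E10.5, and Cdkn1c (43.3% overlapped), which encodes the CDK inhibitor p57, had 812 and 872 CPM at E13.5, against 196 and 218 CPM at E10.5 (log2 change 2.0 ± 0.12 (SE), adjusted p = 1.94e-06). Of 12 imprinted genes free of overlap 3 rose and 3 fell (1 and 1 without preparation 5, 2 and 0 without preparation 8), and of 15 overlapped ones 7 rose. Phlda2, a growth restrainer of the placenta, rose (log2 change 1.53 ± 0.51 (SE), adjusted p = 0.0392), while Sgce (log2 change -0.53 ± 0.14 (SE), adjusted p = 0.0155) and the amino acid transporter gene Slc38a4 (log2 change -0.47 ± 0.16 (SE), adjusted p = 0.047) fell. Igfbp2, which binds insulin-like growth factors, fell to 129 and 149 CPM at E13.5, against 264 and 191 CPM at E10.5 (log2 change -0.74 ± 0.17 (SE), adjusted p = 0.00788), and Igfbp3 rose (log2 change 1.23 ± 0.23 (SE), adjusted p = 0.00564). In the list of that system 3 of 8 rose and 1 fell. Over all genes free of overlap 15.3% were higher and 13.5% lower, and neither list was tested against these shares. Phlda2, Sgce and Slc38a4 lost their calls in some fits. For Phlda2 these had adjusted p = 0.079 by DESeq2, 0.194 without preparation 5, 0.179 without preparation 8 and 0.0719 without WT2, for Sgce adjusted p = 0.144 without preparation 5, 0.0965 without preparation 8 and 0.0511 without WT1, and for Slc38a4 adjusted p = 0.39 in the fit of 16 sorted libraries and 0.453 without preparation 8. Of the genes of the insulin-like growth factor system, Igfbp2 did not pass in 1 fit (adjusted p = 0.068 without preparation 5) and Igfbp3 in another (adjusted p = 0.107 in the fit of 16 sorted libraries), and H19 did not in that of all sorted libraries (adjusted p = 0.212 in the fit of 16 sorted libraries).

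Of 11 genes of kidney and gonad, 2 rose and 2 fell, shares near the 15.3% and 13.5% over all genes free of overlap. Without WT1, 4 fell, and without WT2, 4 did, against 1 without preparation 5 or without preparation 8. Cyp11a1, the first enzyme of steroid synthesis, had 47 and 59 counts at E13.5, against 0 and 1 at E10.5, a ratio of CPM of 135 with a 95% counting interval of 23.7 to 5390. Lhx1, a factor of the early kidney and of neurons, had 6.34 and 7.51 CPM at E13.5, against 2.5 and 3.02 CPM at E10.5 (log2 change 1.29 ± 0.29 (SE), adjusted p = 0.00623). Star, which carries cholesterol into mitochondria for steroid synthesis, fell to 3.68 and 5.26 CPM at E13.5, against 10.5 and 9.91 CPM at E10.5 (log2 change -1.21 ± 0.27 (SE), adjusted p = 0.00561), and Eya1 fell as well (log2 change -0.70 ± 0.14 (SE), adjusted p = 0.00393). Star did not pass in 1 fit (adjusted p = 0.0971 without preparation 5), nor did Eya1 (adjusted p = 0.0815 without preparation 8) and Lhx1 (adjusted p = 0.0886 without preparation 8). Eye genes rose in 3 of 5 cases, and in 1 without preparation 5 or without preparation 8. Rlbp1, a retinal carrier of the visual cycle, had 5.25 and 4.74 CPM at E13.5, against 1.49 and 0.479 CPM at E10.5 (log2 change 2.42 ± 0.50 (SE), adjusted p = 0.0042). Atoh7, a factor of retinal ganglion cells, had 16 and 23 counts at E13.5, against 0 and 2 at E10.5. The ratio of CPM was 24.9 with a 95% counting interval of 6.44 to 213. The log2 change of Atoh7 was 4.72 without preparation 5 and 4.37 without preparation 8, and its call was lost in both fits. Of 7 genes of lung, gut and pancreas, 1 fell and 0 rose, and 0 did either by DESeq2, without preparation 5 or without preparation 8. The gene that fell was Cdx1, a caudal homeobox gene, with 1 and 0 counts at E13.5, against 8 and 16 counts at E10.5 (adjusted p = 0.0223). Of 9 pluripotency genes free of overlap, 6 were too low to test, and among the overlapped members Sall4, a zinc finger factor of embryonic progenitors, had 8.45 and 7.70 CPM at E13.5, against 17.8 and 36.2 CPM at E10.5 (log2 change -1.77 ± 0.31 (SE), adjusted p = 0.00349).

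Genes that act in the G1-S transition itself fell in many cases at E13.5. Of 18 licensing genes, 12 fell and 0 rose, with a median log2 change of -0.49, and 4 of 8 overlapped members fell. Without preparation 5, 7 fell, and without preparation 8, 6 did. Gmnn, geminin, an inhibitor of licensing, had 35.8 and 46.4 CPM at E13.5, against 84.3 and 73.8 CPM at E10.5 (log2 change -0.97 ± 0.16 (SE), adjusted p = 0.00108), and Mcm10 had 129 and 124 CPM at E13.5, against 226 and 211 CPM at E10.5 (log2 change -0.82 ± 0.11 (SE), adjusted p = 0.000393). Of 22 genes of DNA synthesis, 13 fell and 0 rose, with a median of -0.58. Of 11 overlapped members, 3 fell and 1 rose, with a median of -0.28. Rrm2, a subunit of ribonucleotide reductase, had 225 and 227 CPM at E13.5, against 469 and 427 CPM at E10.5 (log2 change -1.01 ± 0.12 (SE), adjusted p = 0.000126), and Pcna, the sliding clamp of DNA polymerase, had 203 and 214 CPM at E13.5, against 435 and 371 CPM at E10.5 (log2 change -0.98 ± 0.13 (SE), adjusted p = 0.000253). The lowest log2 change of the list was -1.11, that of the replication protein gene Rpa3 (adjusted p = 0.0105). Rpa3 did not pass without preparation 8 (adjusted p = 0.0784 without preparation 8). Both E13.5 libraries lay below both E10.5 libraries for each licensing and synthesis gene named, which adds no support to the test. In the test of gates 0 of 18 licensing genes and 0 of 22 synthesis genes had a higher day change in G1-S, and 0 of either list had a lower one. The median differences were -0.11 and -0.24 on the log2 scale, so the falls were not shown to be particular to this gate.

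Of 10 E2F, cyclin and pocket protein genes, 1 rose and 4 fell, while without preparation 5 1 fell and without preparation 8 1 did. E2f1 had 52.3 and 59.5 CPM at E13.5, against 77.9 and 71 CPM at E10.5 (log2 change -0.44 ± 0.13 (SE), adjusted p = 0.0273), and Ccne1, a cyclin of the G1-S transition, had 91.3 and 83.3 CPM at E13.5, against 123 and 114 CPM at E10.5 (log2 change -0.46 ± 0.12 (SE), adjusted p = 0.0117). Tfdp2, a dimer partner of E2F factors, fell to 102 and 94.8 CPM at E13.5, against 177 and 182 CPM at E10.5 (log2 change -0.89 ± 0.11 (SE), adjusted p = 0.000198), and Cdc25a, a phosphatase that activates CDK2, fell (log2 change -0.52 ± 0.11 (SE), adjusted p = 0.0042). Rbl1, which encodes the pocket protein p107, rose (log2 change 0.58 ± 0.12 (SE), adjusted p = 0.00431). Without preparation 5 or 8, or in both cases, several of these calls were lost. They were those of E2f1 (adjusted p = 0.294 without preparation 5, 0.0874 without preparation 8 and 0.063 without WT1), Ccne1 (adjusted p = 0.0686 without preparation 5 and 0.177 without preparation 8), Cdc25a (adjusted p = 0.0533 without preparation 5 and 0.0779 without preparation 8) and Rbl1 (adjusted p = 0.0529 without preparation 5). E2f2, E2f3, E2f4 and E2f6 had log2 changes of -0.06, -0.03, 0.31 and -0.13, and none passed the test. The overlapped genes E2f7, E2f8, Ccnd1 and Ccnd2 had log2 changes of -0.15, 0.29, -0.07 and -0.07 and did not pass, while E2f5 (-0.50, adjusted p = 0.0231) and Ccne2 (-0.66, adjusted p = 0.00492) fell. The falls of E2f5 (adjusted p = 0.234 without preparation 5 and 0.152 without preparation 8) and Ccne2 (adjusted p = 0.0965 without preparation 8) were lost there too. Among CDK inhibitors, Cdkn2c rose with 17.8 and 20.9 CPM at E13.5, against 7.74 and 6.29 CPM at E10.5 (log2 change 1.45 ± 0.22 (SE), adjusted p = 0.000617), while Cdkn1b had 66.1 and 69 CPM at E13.5, against 66.5 and 53.6 CPM at E10.5 (adjusted p = 0.464) and the overlapped Cdkn1a had 5.90 and 7.37 CPM at E13.5, against 5.54 and 7.36 CPM at E10.5 (adjusted p = 0.978). Of 16 targets of p53, 4 rose and 1 fell, with 2 higher without preparation 8. Over all genes free of overlap 15.3% were higher and 13.5% lower. Perp had 21.5 and 16.8 CPM at E13.5, against 5.12 and 9.43 CPM at E10.5 (log2 change 1.35 ± 0.28 (SE), adjusted p = 0.00475), Gtse1, which is also expressed in G2, had 45.7 and 45.7 CPM at E13.5, against 16.8 and 24.8 CPM at E10.5 (log2 change 1.10 ± 0.18 (SE), adjusted p = 0.00113), and Aen had 33.2 and 32.2 CPM at E13.5, against 55.1 and 52.1 CPM at E10.5 (log2 change -0.74 ± 0.13 (SE), adjusted p = 0.002).

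Many genes of G2 and mitosis rose in the G1-S gate at E13.5. Of 29 tested, 19 rose and 1 fell, with a median log2 change of 0.68, and 12 of 13 overlapped members rose. Ccnb2, a mitotic cyclin, had 51.3 and 58 CPM at E13.5, against 21.8 and 25.5 CPM at E10.5 (log2 change 1.18 ± 0.15 (SE), adjusted p = 0.000208), and Ccnb1 had 114 and 103 CPM at E13.5, against 46.4 and 55.3 CPM at E10.5 (log2 change 1.07 ± 0.13 (SE), adjusted p = 0.000186). Mki67, the proliferation marker, had 1157 and 1074 CPM at E13.5, against 511 and 629 CPM at E10.5 (log2 change 0.94 ± 0.13 (SE), adjusted p = 0.000371). Mybl2, a factor upstream of mitotic genes, was the member that fell (log2 change -0.38 ± 0.14 (SE), adjusted p = 0.0487). Its call was lost in 4 fits (adjusted p = 0.058 by DESeq2, 0.225 in the fit of 16 sorted libraries, 0.497 without preparation 5 and 0.0591 without preparation 8), and also with the mitochondrially encoded genes left out. Nor was Mybl2 called with the genes Gm26917 and Gm42418 left out. In the test of gates 9 of 29 had a higher day change in G1-S and 0 a lower one, and with the preparation block 14 were higher. The list averaged 7.07 and 7.10 log2 CPM in G1-S at E13.5, against 6.48 and 6.59 at E10.5. In G1 it averaged 3.46 and 3.45 log2 CPM at E13.5, against 4.11 and 4.34 at E10.5. In S-G2-M it averaged 8.05 and 7.97 log2 CPM at E13.5, against 7.78 and 7.85 at E10.5. Whether the gate held more cells past G1-S at E13.5 was not tested.

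Histone genes rose in part, and the counts depended on the E10.5 library kept. Of 44 replication-dependent histone genes 14 rose and 0 fell; without WT1 34 rose, and without WT2 17 rose and 10 fell. Hist1h4c, a histone H4 gene, had 168 and 195 CPM at E13.5, against 52.4 and 34.3 CPM at E10.5 (log2 change 2.05 ± 0.21 (SE), adjusted p = 0.000285), and Hist1h3d, a histone H3 gene, had 359.9 and 299 CPM at E13.5, against 96.4 and 86 CPM at E10.5 (log2 change 1.83 ± 0.13 (SE), adjusted p = 6.74e-06). Hist2h3b, which lies wholly under a gene of the other strand and has near-identical copies, had 4753 and 4974 counts at E13.5 and 0 in each E10.5 library, at least 4140-fold higher against a floor of 3 counts over the E10.5 group. Hist2h2bb, in the same position, had 1104 and 1341 counts at E13.5 and 0 at E10.5. For these overlapped genes a change with day cannot be told apart from a difference in strand handling.

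Of 60 ribosomal protein genes 23 fell and 3 rose, with a median of -0.34; 8 fell without preparation 5, 14 without preparation 8 and 40 without WT2. Rpl7a had 80.5 and 82.2 CPM at E13.5, against 207 and 150.3 CPM at E10.5 (log2 change -1.16 ± 0.16 (SE), adjusted p = 0.000464), and Rpl34 had 55.6 and 59.5 CPM at E13.5, against 18.7 and 15.4 CPM at E10.5 (log2 change 1.73 ± 0.16 (SE), adjusted p = 2.7e-05). Rpl36al had 0.921 and 1.05 CPM at E13.5, against 2.98 and 3.47 CPM at E10.5 (log2 change -1.73 ± 0.41 (SE), adjusted p = 0.00792). Without preparation 5 or without preparation 8 Rpl36al did not pass (adjusted p = 0.0928 without preparation 5 and 0.0637 without preparation 8). Many ribosomal protein genes have processed copies that can share reads, so single members are uncertain. The mitochondrial ribosomal RNAs had the highest changes of the mitochondrially encoded genes, with 18107 and 15701 CPM at E13.5, against 649 and 654 CPM at E10.5 for mt-Rnr2 (log2 change 4.67 ± 0.15 (SE), adjusted p = 5.56e-08) and 2095 and 1577 CPM at E13.5, against 17.9 and 40.6 CPM at E10.5 for mt-Rnr1. Ribosomal RNA was depleted before the libraries were built, per the labels, and the part of that step was not tested. The coding gene mt-Co3 fell (log2 change -1.17 ± 0.33 (SE), adjusted p = 0.0194), and of 29 nuclear genes of oxidative phosphorylation 7 fell and 1 rose, with 3 lower without preparation 5, 3 without preparation 8 and 4 without WT1. Ndufb8, a subunit of complex I, had 32.7 and 32.9 CPM at E13.5, against 76.8 and 56.5 CPM at E10.5 (log2 change -1.05 ± 0.17 (SE), adjusted p = 0.000987), Cox6b1, of complex IV, had 66 and 59.9 CPM at E13.5, against 109.8 and 94.6 CPM at E10.5 (log2 change -0.72 ± 0.13 (SE), adjusted p = 0.00193), and Cyc1, cytochrome c1, rose (log2 change 0.48 ± 0.13 (SE), adjusted p = 0.0176). In single fits mt-Co3 (adjusted p = 0.224 without preparation 8) and Cyc1 (adjusted p = 0.177 without preparation 8) did not pass, and mt-Rnr1 missed the threshold in 3 (adjusted p = 0.0565 with no filter, 0.107 without preparation 5 and 0.0948 without preparation 8).

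Of the genes named by rule for the test of gates, the 8 with the highest difference were Alb, Serpina6, Fga, Fgb, Serpinf2, Apoa1, C3 and Itih2. Serpinf2, which encodes the plasmin inhibitor of plasma, had 78.8 and 61.4 CPM at E13.5, against 1.55 and 2.07 CPM at E10.5, and its day change in G1-S exceeded that of the other gates by 5.75 ± 0.35 (SE), adjusted p = 2.79e-07. Itih2, an inhibitor chain that binds hyaluronan, had 134 and 91.3 CPM at E13.5, against 2.20 and 6.35 CPM at E10.5, with a difference of 5.48 ± 0.50 (SE), adjusted p = 6.21e-05. The 8 lowest were Nfatc1, Col27a1, Hpse2, Alx1, Cemip, Nfatc2, Hoxd11 and Cspg4. Nfatc1, a calcium-responsive transcription factor, had 35.5 and 31.8 CPM at E13.5, against 10.1 and 13.1 CPM at E10.5, with a difference of -1.89 ± 0.26 (SE), adjusted p = 0.000512. Col27a1, a collagen of developing cartilage, had 144 and 142 CPM at E13.5, against 52.8 and 44.6 CPM at E10.5, with a difference of -1.59 ± 0.23 (SE), adjusted p = 0.00136. Alx1, a homeobox gene of craniofacial mesenchyme, had 8.34 and 14.4 CPM at E13.5, against 18 and 13.2 CPM at E10.5 and did not pass the test of days in G1-S (adjusted p = 0.228), and its difference between gates was -1.54 ± 0.36 (SE), adjusted p = 0.0226. Hpse2, Cemip, Nfatc2, Hoxd11 and Cspg4 had differences of -1.59, -1.50, -1.46, -1.44 and -1.39. Cspg4, the NG2 proteoglycan of pericytes and glial progenitors, had 152 and 123 CPM at E13.5, against 48.9 and 48.1 CPM at E10.5, and Nfatc2 had 17.9 and 17.9 CPM at E13.5, against 4.05 and 6.26 CPM at E10.5. Without preparation 5, and likewise without preparation 8, 12 of these 16 differences were not called, and those of Fgb, Serpinf2, Apoa1 and Itih2 were. Without WT2 the difference for Fga was 4.09 (adjusted p = 1), and without WT1 that for Alx1 was -1.13 (adjusted p = 0.189).

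**Figure D5:**
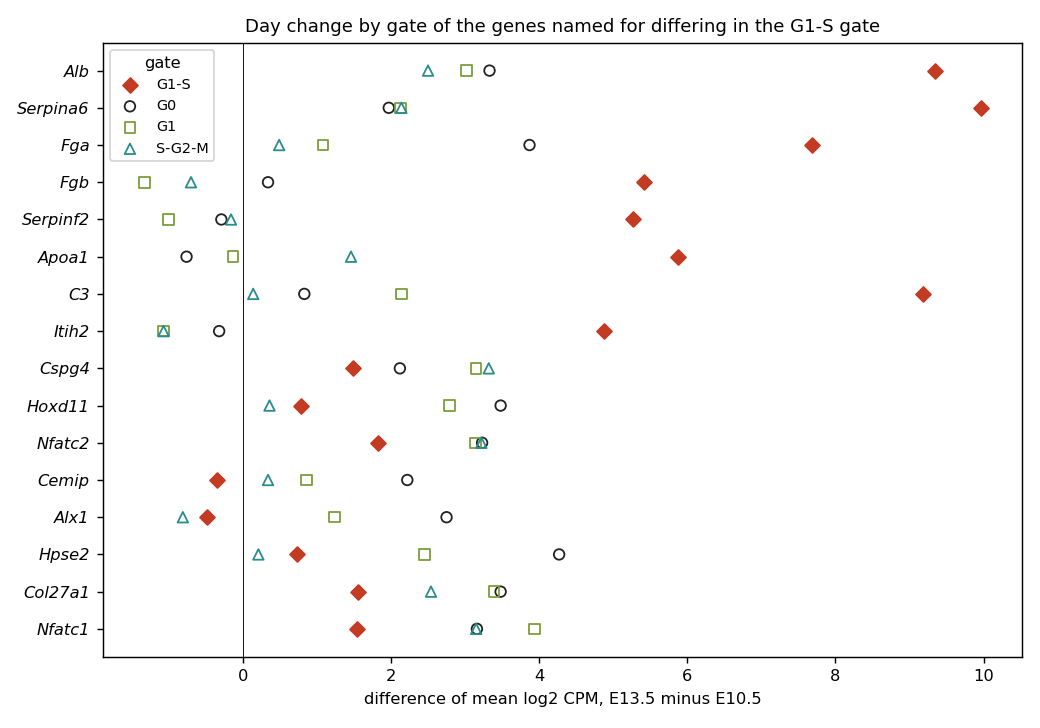
Difference of mean log2 CPM, E13.5 minus E10.5 (x axis), in the G1-S gate (filled) and in the other sorted gates (open) for the 16 genes named for the test of gates (y axis). The 8 liver genes have their highest day change in G1-S, and the 8 lowest genes have a lower day change in G1-S than in G0 and G1.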

How the data were processed

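The deposited gene counts of 130 samples were used. Per the submitters' processing notes, STAR 2.5.3, HTSeq 0.8.0 and mm10 were used. The sources used here give neither the annotation nor the strand setting. Lane columns were summed to 25 libraries. Of 52550 genes, 52403 were matched by ID to GENCODE M21 to find genes with at least 1 exon base under a gene of the other strand.

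Days were compared with edgeR 4.0.16 (quasi-likelihood, TMM factors, filterByExpr, Benjamini-Hochberg adjustment over all genes tested, threshold 0.05) in R 4.3.3, and gates in 1 fit of 16 sorted libraries. SEs came from the log2 change and its F statistic. CPM were scaled with TMM over 25 libraries, and ratios of low counts have exact 95% binomial intervals, which cover counting error only.

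The members and the 40 lists were chosen with earlier results of these data known. By rule, the text names the 12 highest and 12 lowest changes free of overlap (predicted, small RNA, mitochondrial and pseudogenes left out) with a mean of at least 3 log2 CPM, up to 2 members each way per list, 8 each way for the gates and a fixed set of regulators. Other genes were chosen after their values were seen. Samples of a preparation deviated together across gates (r of 0.314 to 0.667 in E13.5 libraries and of 0.12 to 0.666 in E10.5 libraries), so preparation was also used as a block. Alternatives were RLE factors, DESeq2 1.42.0, no filter, 16 sorted libraries, a fold minimum, and genes or libraries left out.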

Additional observations from a re-analysis of the deposited data

Results flagged for a closer look

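The day change in G1-S cells differed from the mean day change of the other sorted gates for 1053 genes, by the test of the difference itself (edgeR's quasi-likelihood test, Benjamini-Hochberg adjustment). Among the 16 genes named for this comparison, the differences on the log2 scale were 6.38 for Alb, 5.99 for Serpina6, 5.92 for Fga, 5.86 for Fgb, 5.75 for Serpinf2, 5.70 for Apoa1, 5.67 for C3 and 5.48 for Itih2, which rose further in G1-S. They were -1.89 for Nfatc1, -1.59 for Col27a1, -1.59 for Hpse2, -1.54 for Alx1, -1.50 for Cemip, -1.46 for Nfatc2, -1.44 for Hoxd11 and -1.39 for Cspg4. Without preparation 5, and likewise without preparation 8, 12 of the 16 were not called. Fga was not called without WT2 either (4.09, adjusted p = 1), where the value for Serpina6, then fitted against an E10.5 library at 0, was 11.54. In unsorted cells the difference of mean log2 CPM of Alb, E13.5 minus E10.5, was 5.96, against 9.35 in G1-S.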

How the results depend on the processing

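With 2 preparations a day, the calls depended on single libraries. The count of genes called between days was 4049 to 10953 over the 4 fits that each left out 1 library (7606 with all), and 1793 to 6285 of the genes free of overlap (3878 with all); the lone library of a day was then assumed to vary like the other day. With a change of at least 2-fold required, 4610 and 1950 genes were called. Of calls free of overlap, 53.1% were higher with all libraries, 61.0% without preparation 5 and 61.4% without preparation 8. Other size factors, no filter, DESeq2 and all 16 sorted libraries gave counts within 1.5 times. For the test of gates, 83 to 3420 genes were called without 1 preparation, 2046 with the preparation as a replicate block, 1876 with no filter and 1551 by DESeq2. Between days no paired analysis was possible, because the days share no preparation. The gates of a preparation are paired, and only the fit with the replicate block took this into account.

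Of 157 genes tested between days and named, 92 kept their direction and their side of the threshold under every setting, and of 16 named for the gates 3 did, with 12 losing the call without preparation 5 and 12 without preparation 8. For single genes, these settings did not include the fits with Gm26917 and Gm42418 or with the mitochondrially encoded genes left out. Signs turned for 7 genes, none of which had passed the test, when single libraries were left out. Their log2 changes then lay between -0.15 and 0.89 for Hba-x, -0.20 and 0.10 for Ccnd1, -0.25 and 0.18 for Ccnd2, -0.14 and 0.24 for Cdkn1a, -0.01 and 0.34 for Cdkn1b, -0.19 and 0.11 for E2f2, and -0.04 and 0.02 for E2f3. With unsorted cells in place of the other gates, 9 of the 16 genes named for the gates kept their sign and their call. Another 5 lost the call, and Hpse2 (0.29) and Hoxd11 (0.87) turned sign. The cause was not tested.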
